A study of Mus musculus with 8 samples.

Results

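The genes described here are the amino acid transporters of the solute carrier families Slc1a, Slc3a, Slc6a, Slc7a, Slc36a, Slc38a and Slc43a, chosen by their gene symbols alone and without regard to any measured value. The array carried 60 probes for 53 of these genes, out of 22393 probes in all and 16504 genes named by a single symbol. They comprised 7 Slc1a, 8 Slc38a, 2 Slc3a, 15 Slc7a, 2 Slc43a, 4 Slc36a and 15 Slc6a genes. Each of the 53 has a value on every array, and 6 of them had more than 1 probe.

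RNA came from epididymal fat, a visceral depot, of mice of a polygenic obese stock. Treated mice had been fed conjugated linoleic acid (CLA), a set of isomers of linoleic acid, and control mice linoleic acid (LA) itself, both for 5 or for 14 days of a trial. Every mouse in the study was thus of the obese stock and ate one of these fatty acids. The sources used here do not give the strain's name, the age of the mice, the isomers or the dietary dose. Nor do they state the sex, but epididymal fat comes from males. Each of the 8 arrays set a pool of 4 or 5 CLA-fed mice in one dye against a pool of LA-fed mice in the other, with 4 arrays at day 5 and 4 at day 14. On arrays 1 and 2 of either day Cy5 labelled the CLA pool, and on arrays 3 and 4 Cy3 did. Whether any pool was used on more than 1 array is not given, so errors measure only the spread between arrays, and the 4 arrays of a day limit the precision.

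Values are log2 ratios and hold no expression level, so the tissue could not be checked against the level of its markers. The ratios are read as CLA over LA, which no source states and which is only likely, CLA being the treatment. The arrays of both dye orientations were taken as already turned to a common direction. This rests on 489 probes with a dye effect over 2 log2 units on both days, against 1 probe whose mean exceeded that size on both days. The dye effect is the distance of either orientation's mean from the mean of both. In 488 of the 489, arrays 1 and 2 were all below 0 and arrays 3 and 4 all above it, but 473 of them had no single gene symbol. Over all genes, arrays of the same day and opposite dye correlated negatively, with a median r of −0.36 (−0.61 to 0.031), whereas those of the same day and dye had a median of 0.47. The direction shared by both orientations is thus not settled, and values with arrays 3 and 4 turned are given too. None of the 489 probes belonged to an amino acid transporter (0 of 60 probes). If every ratio were LA over CLA, all signs given here would be reversed. The values were taken as log10 and multiplied by 3.32. Were they log2 as deposited, each log2 value and its error would be smaller by that factor.

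Amino acids cross membranes largely through carriers. Sodium-coupled carriers (Slc1a, Slc6a, Slc38a) accumulate amino acids in the cell, many Slc7a proteins pair with a heavy chain of Slc3a and trade one amino acid for another, and Slc36a carriers run on protons. Fat cells take up branched-chain amino acids, glutamine, glutamate, serine and cystine and feed them into lipid, glutathione and signalling through mTORC1. Several carriers are known targets of the transcription factor ATF4, which is made when amino acids run short.

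The arrays differed in their spread. Residuals (root mean square over all genes, log2) were 0.235 to 0.56 for arrays of day 5, and 0.198 to 0.24 for those of day 14. Transcripts known from sperm and epididymis had large ratios on single arrays. Prm1, a sperm protamine, stood at 6.78 on day 5 array 3 and between −1.39 and 1.66 on the other arrays. Lcn5, an epididymal lipocalin, stood at 2.83 on day 5 array 1 and at −5.03 on day 14 array 3. Results that rest on day 5 are therefore also given without day 5 arrays 1 and 3, a choice made after these values were seen.

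At day 14, 4 transporters stood far below the rest. These were the glutamate transporter Slc1a3, the glutamine transporters Slc1a5 and Slc38a5, and the serine and glycine exchanger Slc7a10, each lower by 2.40-fold to 3.21-fold in the mice fed CLA. Slc36a2, a proton-coupled carrier, was higher by 1.61-fold. The other transporters lay between −0.67 and 0.46 on the log2 scale. When limma was run on day 14 arrays only, these 5 were called (Benjamini-Hochberg adjusted p under 0.05 over all genes), 4 lower and 1 higher. That is 5 of 53, or 9.43%, against 1.58% of all genes called in that fit (1.04% lower and 0.533% higher). The fit of all 8 arrays, which gives both days 1 estimate of the spread, called 0 of the 53 transporters and 0% of all genes at day 14, with a smallest adjusted p of 0.179. There, 9 of 53 transporters (17%; 4 higher, 5 lower) reached an unadjusted p under 0.05, as did 9.77% of all genes. Without day 14 array 1 or array 2, or without the dye term, the fit of the day 14 arrays called 0 transporters. It called Slc1a5, Slc38a5 and Slc6a2 without array 3, and Slc1a3, Slc1a5, Slc38a5 and Slc7a10 without array 4. At an unadjusted p under 0.05 the day 14 arrays alone gave 12 of 53 transporters (22.6%) against 19.1% of all genes, 6 higher (7.46% of all genes) and 6 lower (11.7%). In whole tissue, fewer cells of a type and less RNA per cell cannot be told apart.

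**Figure D1:**
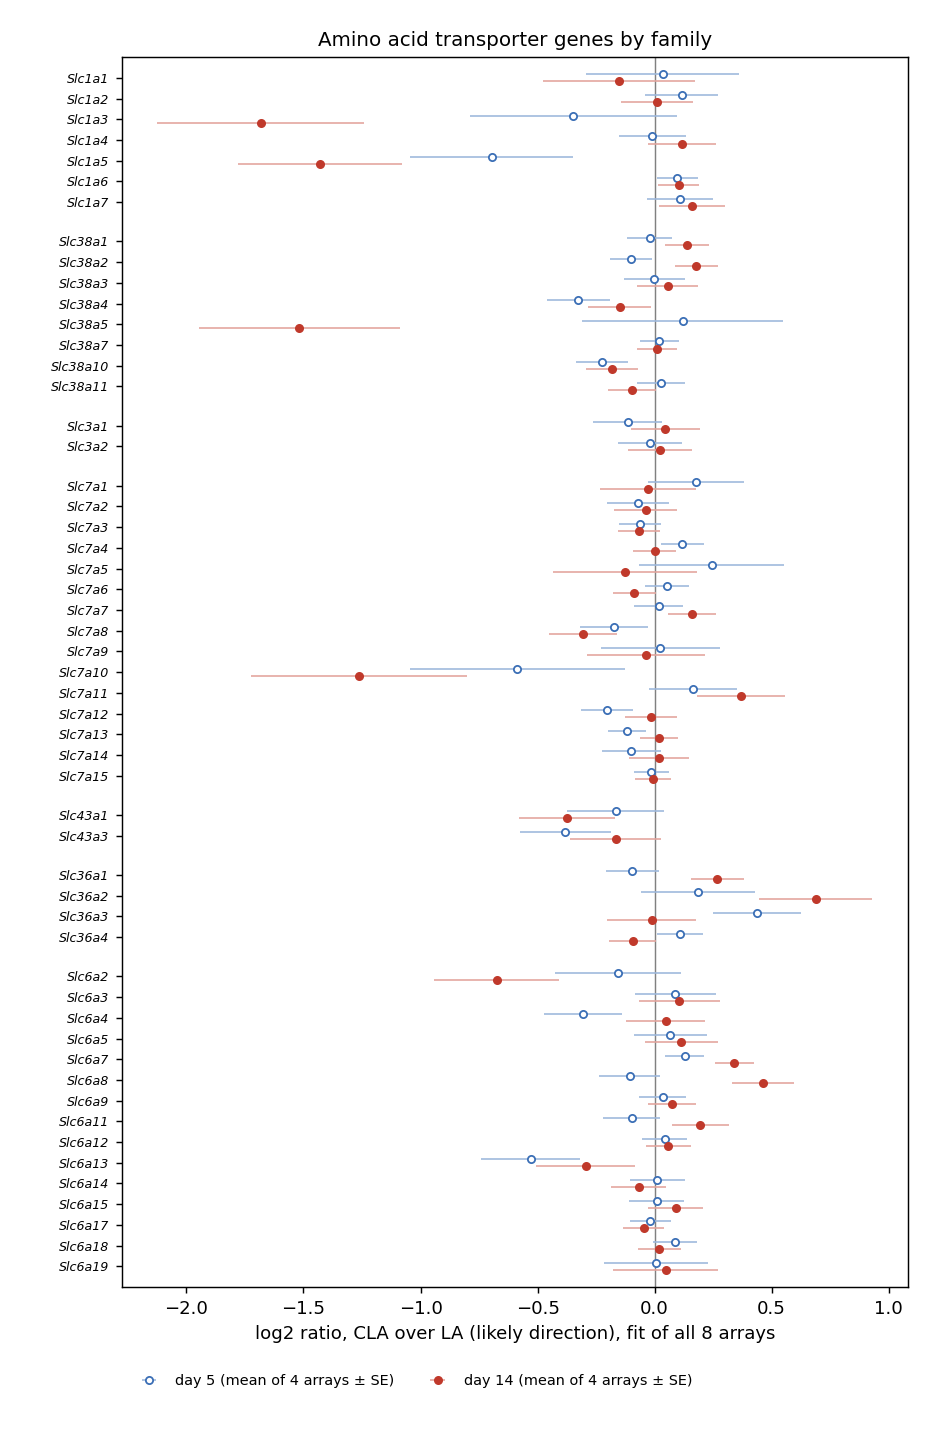
Log2 ratio of CLA over LA (horizontal axis, likely direction) for each of the 53 transporters, grouped by family, at day 5 (open circles) and day 14 (filled circles), with bars of 1 standard error from the fit of all 8 arrays. At day 14 Slc1a3, Slc1a5, Slc38a5 and Slc7a10 lie between −1.68 and −1.26 and Slc36a2 at 0.69, while most others lie near 0 on both days.

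Slc1a3 encodes GLAST, a sodium-coupled carrier of glutamate and aspartate best known from astrocytes. On the 4 day 14 arrays it stood at −1.03, −1.86, −2.54 and −1.29, and on the day 5 arrays at −2.08, 0.05, −0.30 and 0.94. All day 14 values were below 0, whereas the day 5 values lay on both sides and overlapped with those of day 14. The day 14 mean was −1.68 ± 0.24 (SE from the day 14 arrays alone, n = 4 arrays) or ± 0.44 (SE from all arrays). Its limma adjusted p was 0.047 with the day 14 arrays alone and 0.32 with all arrays. Of 16504 genes it ranked 10 from the lowest at that day, and 3918 from the highest with arrays 3 and 4 turned.

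Slc1a5 encodes ASCT2, an exchanger of glutamine and other small neutral amino acids. Its day 14 values were −0.79, −1.22, −2.04 and −1.67, all below 0. At day 5 it stood at −1.19, 0.00, −1.91 and 0.32, low on arrays 1 and 3 and near or above 0 on arrays 2 and 4. The day 14 mean was −1.43 ± 0.11 (SE from the day 14 arrays alone, n = 4) or ± 0.35 (SE from all arrays). Its limma adjusted p was 0.021 with the day 14 arrays alone and 0.30 with all arrays. The other 5 genes of the Slc1a family lay between −0.15 and 0.16 at day 14. They are the glutamate carriers Slc1a1, Slc1a2, Slc1a6 and Slc1a7 and the serine and alanine exchanger Slc1a4.

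Slc38a5 encodes SNAT5, which moves glutamine, histidine and asparagine with sodium against protons. Its day 14 values were −1.14, −0.51, −1.97 and −2.45, and its day 5 values were 2.52, −0.52, −0.29 and −1.24. Day 5 array 1, with the value above 2, is the array on which epididymal Lcn5 was also high, at 2.83. On the day 14 arrays Lcn5 stood at −0.16, −2.45, −5.03 and −0.09, so the array lowest for Slc38a5 was not the one lowest for Lcn5. What part epididymal tissue has in Slc38a5 was not tested. The day 14 values of Slc38a5 split by dye, with a dye term of 0.79 in the fit of all arrays and a standard deviation of 0.86. Their mean was −1.52 ± 0.14 (SE from the day 14 arrays alone, dye term taken off, n = 4) or ± 0.43 (SE from all arrays). Its limma adjusted p was 0.026 with the day 14 arrays alone and 0.34 with all arrays.

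Slc7a10 encodes Asc-1, an exchanger of serine, glycine, alanine and cysteine that in mice marks the surface of white fat cells. Its day 14 values were −0.67, −1.29, −1.77 and −1.33, all below 0. At day 5 it stood at −1.56, 0.21, −1.94 and 0.94, again low on arrays 1 and 3. The day 14 mean was −1.26 ± 0.13 (SE from the day 14 arrays alone, n = 4) or ± 0.46 (SE from all arrays). Its limma adjusted p was 0.031 with the day 14 arrays alone and 0.44 with all arrays.

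Slc36a2 encodes PAT2, a proton-coupled carrier of glycine, alanine and proline that in mice marks the surface of brown and beige fat cells. It was the only called transporter above 0, with day 14 values of 1.06, 0.86, 0.58 and 0.25. Its day 5 values, 0.42, 0.04, −0.69 and 0.97, spread over both sides of 0. The day 14 mean was 0.69 ± 0.09 (SE from the day 14 arrays alone, n = 4) or ± 0.24 (SE from all arrays). Its limma adjusted p was 0.043 with the day 14 arrays alone and 0.42 with all arrays. Leaving out any 1 day 14 array took its adjusted p to between 0.051 and 0.15.

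**Figure D2:**
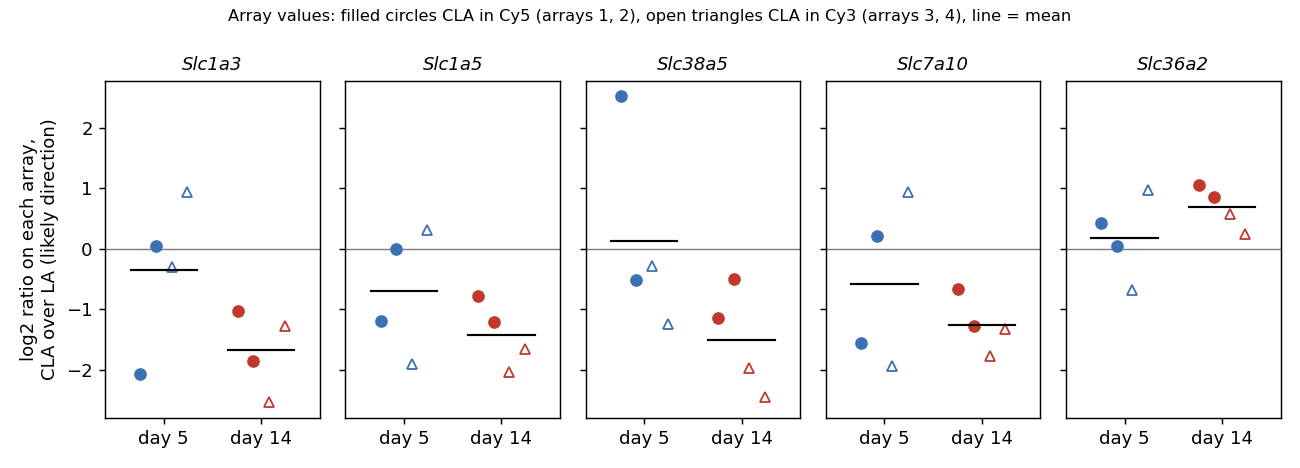
Log2 ratio on each array (vertical axis, CLA over LA in the likely direction) of the 5 transporters called at day 14, with filled circles for arrays with CLA in Cy5, open triangles for arrays with CLA in Cy3, and a line marking each day's mean. All day 14 values lie below 0 for Slc1a3, Slc1a5, Slc38a5 and Slc7a10 and above 0 for Slc36a2, whereas day 5 values lie on both sides of 0 for each gene.

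As 3 of the 4 lower transporters have a promoter in the RefSeq table (GRCm38.p6), the 250 bases before the start of each are shown, 5′ to 3′ on the strand of the gene. Capitals mark the word CACGTG, an E-box, which is present in 1 of the 3.
Slc1a3, chr15:8710808-8711057, minus strand: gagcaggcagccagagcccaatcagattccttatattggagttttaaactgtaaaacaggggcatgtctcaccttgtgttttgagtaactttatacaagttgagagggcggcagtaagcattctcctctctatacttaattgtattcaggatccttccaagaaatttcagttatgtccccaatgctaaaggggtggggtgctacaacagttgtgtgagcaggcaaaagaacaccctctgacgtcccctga
Slc38a5, chrX:8271131-8271380, plus strand: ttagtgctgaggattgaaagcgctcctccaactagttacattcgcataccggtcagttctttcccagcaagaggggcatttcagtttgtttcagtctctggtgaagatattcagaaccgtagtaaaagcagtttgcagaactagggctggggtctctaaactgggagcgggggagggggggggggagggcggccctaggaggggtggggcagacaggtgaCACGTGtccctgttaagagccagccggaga
Slc7a10, chr7:35186135-35186384, plus strand: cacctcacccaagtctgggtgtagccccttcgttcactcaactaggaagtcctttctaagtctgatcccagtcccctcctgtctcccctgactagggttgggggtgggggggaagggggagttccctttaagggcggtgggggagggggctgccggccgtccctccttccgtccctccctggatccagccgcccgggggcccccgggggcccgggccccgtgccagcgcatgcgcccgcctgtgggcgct
Their G and C content differed, at 44.8% for Slc1a3, 55.2% for Slc38a5 and 69.6% for Slc7a10, against a median of 52.4% over all promoters of the table. CACGTG, searched on both strands, was found in 8 of the 37 transporters with a promoter there (21.6%) and in 8.09% of all genes. A match is a run of letters and not a site of binding.

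Markers of fat cells were low on many of the same arrays. Of 5 adipocyte markers 4 lay below 0 at day 14, with a median of −0.66, and their median on the 4 arrays was −0.30, −0.53, −1.19 and −0.66. At day 5 that median was −0.96 and −1.66 on arrays 1 and 3, where Slc7a10 and Slc1a5 were low, and 0.42 and 0.70 on arrays 2 and 4, where they were not. Adipoq, the adipocyte hormone adiponectin, stood at −2.29, 0.42, −2.55 and 0.70 at day 5 and at −0.82, −1.80, −3.54 and −1.97 at day 14. At day 14 array 3 was the lowest for Slc1a3, Slc1a5 and Slc7a10 and for 3 of the 5 markers (Adipoq, Plin1 and Cidec), whereas Lipe was lowest on array 2 and Fabp4 on array 4. At day 5 Lipe (−0.95, −0.67, 0.53 and 0.68) and Fabp4 (1.23, 0.91, −1.66 and 1.31) did not share the lows of both arrays 1 and 3. Of the markers of other cells, 5 of 5 measured macrophage genes lay above 0 (median 0.51), 6 of 6 endothelial genes below 0 (−0.34) and 5 of 5 mesothelial genes below 0 (−0.86) at day 14. With arrays 3 and 4 turned, the adipocyte median at day 14 was 0.69, with 4 of 5 above 0, and the macrophage, endothelial and mesothelial medians were 0.19, −0.28 and 0.066. The part of the cell makeup in the transporter values was not tested.

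**Figure D3:**
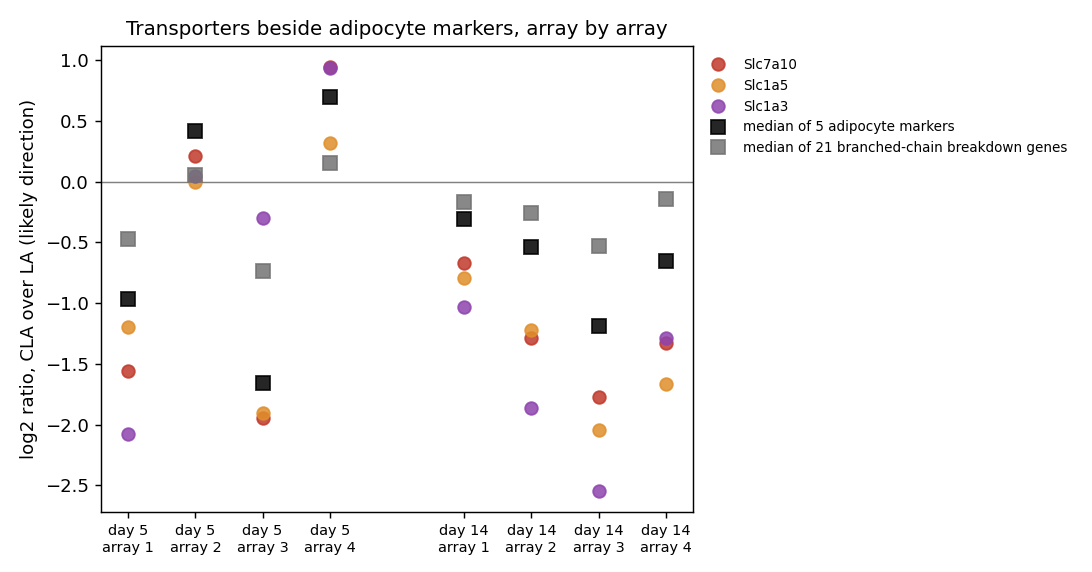
Log2 ratio of CLA over LA (vertical axis, likely direction) on each of the 8 arrays for Slc7a10, Slc1a5 and Slc1a3 (circles) and the median of 5 adipocyte markers and of 21 genes of branched-chain amino acid breakdown (squares). On day 5 arrays 1 and 3 the adipocyte median is −0.96 and −1.66 and Slc7a10 is −1.56 and −1.94, while on arrays 2 and 4 all are near or above 0.

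The sodium-coupled Slc38a family, which supplies cells with glutamine and small neutral amino acids, held no called gene apart from Slc38a5. Slc38a2, the system A carrier that rises when amino acids are scarce, had day 14 values of 0.20, 0.03, 0.24 and 0.24, a mean of 0.18 ± 0.09 (SE, n = 4; limma adjusted p = 0.60, all arrays). Its 2 probes gave 0.10 and 0.26 (limma unadjusted p = 0.39 and 0.017, all arrays, probe by probe). Slc38a4, a liver-type system A carrier that is imprinted in mice, stood at 0.09, 0.53, −0.99 and −0.93 at day 5. Those values split by dye, with a dye term of 0.69, and the mean was −0.33 ± 0.13 (limma unadjusted p = 0.044, adjusted p = 0.36). The other 5 members, Slc38a1, Slc38a3, Slc38a7, Slc38a10 and Slc38a11, lay between −0.18 and 0.14 at day 14.

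Heterodimeric exchangers showed no common direction. Slc3a2, the CD98 heavy chain shared by most of them, was at 0.36, 0.58, −0.42 and −0.43 on the day 14 arrays, a split by dye around a mean of 0.02 ± 0.14 (SE, n = 4; limma adjusted p = 0.99, all arrays). Its partner Slc7a5 (LAT1), the importer of leucine and other large neutral amino acids, stood at −0.78, −0.04, 0.26 and 0.06, a mean of −0.13 ± 0.31. Slc7a5 was at 1.17 on day 5 array 1 and ranged from −0.67 to 0.78 on the other arrays of that day. Another partner, Slc7a11 (xCT), which imports cystine for glutathione synthesis, had day 14 values of −0.03, 0.44, 0.62 and 0.46 and a mean of 0.37 ± 0.19 (limma adjusted p = 0.59 with all arrays, 0.14 with the day 14 arrays alone). Slc7a7, a carrier of arginine and lysine abundant in macrophages, stood at 0.18, −0.07, 0.53 and 0.00, with a mean of 0.16 ± 0.10 (limma adjusted p = 0.70, all arrays). None of these 4 passed the test in either fit.

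Of the 15 Slc7a genes 5 lay above 0 and 10 below at day 14, with a median of −0.03. With all arrays, Slc7a10 was the only 1 of them with an unadjusted p under 0.05. The cationic amino acid carriers Slc7a1, Slc7a2 and Slc7a3 lay between −0.07 and −0.03. The LAT2 light chain Slc7a8 stood at −0.30 ± 0.15, and the remaining 7 Slc7a genes lay between −0.09 and 0.02. Both Slc43a genes, of which Slc43a1 encodes a uniporter of large neutral amino acids, lay below 0 at day 14, at −0.37 ± 0.21 and −0.17 ± 0.19.

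Among the proton-coupled Slc36a carriers Slc36a1, a lysosomal and plasma membrane carrier that bears on mTORC1, accompanied Slc36a2 on the higher side. Its day 14 values were 0.64, 0.47, −0.03 and −0.01, above 0 only where CLA was in Cy5, with a mean of 0.27 ± 0.11 (limma unadjusted p = 0.048, adjusted p = 0.51). Slc36a3 was at 0.18, −0.03, 1.46 and 0.14 at day 5, high on the array where Prm1 was at 6.78, and at −0.01 ± 0.19 on average at day 14. Slc36a4 stood at −0.09 ± 0.10 at day 14.

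The Slc6a family carries neurotransmitters, creatine, taurine and betaine besides amino acids. At day 14, 11 of its 15 genes lay above 0 and 4 below, with a median of 0.06. Slc6a8, the creatine carrier, stood at 0.60, 0.74, 0.60 and −0.09 at day 14 and at −0.06, −0.22, 0.02 and −0.17 at day 5. It was thus higher at day 14 on arrays 1 to 3 only, with a mean of 0.46 ± 0.13 (limma unadjusted p = 0.0086, adjusted p = 0.34, all arrays). Slc6a7, a proline carrier of brain, had day 14 values of 0.21, 0.14, 0.34 and 0.67, all above 0, with a mean of 0.34 ± 0.08 (limma unadjusted p = 0.0038, adjusted p = 0.30). With array weights in the fit of all arrays it was 1 of 6 transporters called at day 14 (limma adjusted p = 0.031), the others being the 5 called above, against 3.54% of all genes. Without day 5 arrays 1 and 3 that fit called 4 of the 5 and not Slc36a2, against 1.76% of all genes. Slc6a2, the noradrenaline carrier of sympathetic nerve endings, stood at −0.61, −0.48, 0.09 and −1.70, a mean of −0.67 ± 0.27 (limma unadjusted p = 0.037, adjusted p = 0.48). Slc6a13, a carrier of GABA, betaine and taurine, had a mean of −0.29 ± 0.21 at day 14. The other 11 genes of the family lay between −0.07 and 0.20.

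At day 5 limma called 0 transporters and 0% of all genes, in the fit of all arrays (smallest adjusted p 0.284) as in that of the day 5 arrays alone (0.812). With all arrays, an unadjusted p under 0.05 was reached by 2 of 53 transporters (3.77%), both lower, and by 13.4% of all genes (9.17% lower, 4.19% higher). With day 5 arrays alone it was reached by 0 of 53, against 4.63% of all genes (1.15% higher, 3.48% lower). The 2 transporters that reached it with all arrays were Slc38a4 and Slc6a13. Slc6a13 stood at −1.31, −0.23, −0.85 and 0.28, low on the arrays where the adipocyte markers were low, with a mean of −0.53 ± 0.21 (limma unadjusted p = 0.039, adjusted p = 0.35). The lowest day 5 mean was that of Slc1a5, −0.70 ± 0.35 (limma adjusted p = 0.42), followed by Slc7a10 at −0.59 ± 0.46 (limma adjusted p = 0.58). With day 5 arrays 1 and 3 left out these became 0.16 and 0.58, Slc6a13 became 0.02 and Slc1a3 went from −0.35 to 0.49. The highest was Slc36a3 at 0.44 ± 0.19 (limma adjusted p = 0.38).

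Over all 53 transporters the median log2 ratio was −0.0014 at day 5 and 0.011 at day 14, with 27 and 25 of them below 0. Over all genes it was −0.0016 and 0.00096. The median size without regard to sign was 0.10 for the transporters and 0.13 for all genes at day 5, and 0.10 and 0.10 at day 14. At day 14 all 4 arrays lay on the same side of 0 for 9 of 53 transporters (17%), against 13.4% of all genes. The 5 above 0 (6.3% of all genes) were Slc1a7, Slc36a2, Slc38a2, Slc6a7 and the GABA carrier Slc6a11, and the 4 below 0 (7.06%) were the called ones. At day 5 it was so for 1 transporter, Slc7a14, below 0, against 5.48% of all genes (2.25% above, 3.24% below). The means of both days had the same sign for 31 of 53 transporters (58.5%) and for 62.4% of all genes, and correlated with Pearson's r = 0.53 across the 53 transporters and 0.36 across all genes.

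The change from day 5 to day 14 was called for 0 transporters and 0% of all genes (limma, fit of all arrays, smallest adjusted p 0.892). An unadjusted p under 0.05 was found for 2 of 53 transporters (3.77%) and 4.24% of all genes, 1 higher (2.81% of all genes) and 1 lower (1.44%). Slc6a8 was higher at day 14 than at day 5 by 0.57 ± 0.19 (limma unadjusted p = 0.017). The difference for Slc38a5 was −1.64 ± 0.61 (unadjusted p = 0.028). For Slc1a3 it was −1.33 ± 0.62 (unadjusted p = 0.067), for Slc1a5 −0.73 ± 0.49 and for Slc7a10 −0.68 ± 0.65. The calls of these genes at day 14 and not at day 5 are thus not shown to differ between days.

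Beyond the transporters, genes for the breakdown of the branched-chain amino acids leucine, isoleucine and valine lay almost all on the lower side. Their list also counts Bckdk, a kinase that holds this breakdown back, at −0.13 at day 5 and −0.19 at day 14. At day 5, 21 of 21 measured genes were below 0 (median −0.27), and at day 14, 20 of 21 (median −0.29). Over all genes 8298 and 8210 of 16504 were below 0. With arrays 3 and 4 turned, 9 of the 21 were below 0 on either day (medians 0.051 and 0.12). On each day 6 of the 21 had an unadjusted p under 0.05, all lower, against 9.17% of all genes lower at day 5 and 5.53% at day 14, and limma called 0 of them in either fit. Aldh6a1, a dehydrogenase of valine breakdown, stood at −0.97 ± 0.16 at day 14, Hsd17b10, of isoleucine breakdown, at −0.29 ± 0.09, and Mmut, methylmalonyl-CoA mutase, at −0.52 ± 0.18 (SE, n = 4, fit of all arrays). The list median was −0.48, 0.05, −0.74 and 0.15 on the day 5 arrays, low where the adipocyte markers were low, and −0.17, −0.26, −0.53 and −0.14 on the day 14 arrays.

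Of 10 genes of glutamate, glutamine and proline metabolism 8 lay below 0 at day 14 (median −0.18), and 2 fell when day 14 arrays were fitted alone, against 1.04% of all genes lower in that fit. With arrays 3 and 4 turned 6 of the 10 lay below 0 (median −0.021). The 2 that fell, with the arrays as deposited, were Gpt2 (mitochondrial alanine aminotransferase) and Prodh (proline dehydrogenase). They stood at −0.79 ± 0.22 and −0.56 ± 0.08 (SE from the fit of all arrays). Their limma adjusted p was 0.026 and 0.043 with the day 14 arrays alone. Of 11 genes of cysteine and glutathione metabolism 10 lay above 0 at day 14 (median 0.11), against 8294 of all 16504 genes. With arrays 3 and 4 turned 6 did (median 0.0014). The list mixes enzymes of synthesis with enzymes of breakdown, Chac1 and Cdo1 among the latter, so its median has no single meaning for synthesis. Chac1, which degrades glutathione, rose to 1.26 ± 0.21, and Cdo1, cysteine dioxygenase, fell, with a mean of −0.81 ± 0.27 (limma adjusted p = 0.031 and 0.043 with the day 14 arrays alone). Gsr, glutathione reductase, stood at 0.24 ± 0.09.

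Among 24 targets of the integrated stress response other than the transporters, 15 lay above 0 and 9 below at day 14 (median 0.12). With arrays 3 and 4 turned it was 8 above and 16 below (median −0.24). Chac1, counted in this list too, was the only 1 of the 24 called with the day 14 arrays alone, against 1.58% of all genes. The fit of all arrays called 0 of them. Cebpb stood at 0.31 ± 0.11 and Ddit3 (CHOP) at 0.20 ± 0.08, whereas Phgdh, the first enzyme of serine synthesis, stood at −0.82 ± 0.23 and Ddit4 at −0.49 ± 0.16. Lists of mTORC1 amino acid sensing (20 genes, median 0.02), mitochondrial amino acid carriers (10 genes, 0.01) and other amino acid and peptide transporters (12 genes, 0.04) held 0 called genes at day 14 in either limma fit. With all arrays 0, 0 and 1 of their genes had an unadjusted p under 0.05 at that day, the last being the lysosomal peptide carrier Slc15a3 at 0.41 ± 0.18.

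**Figure D4:**
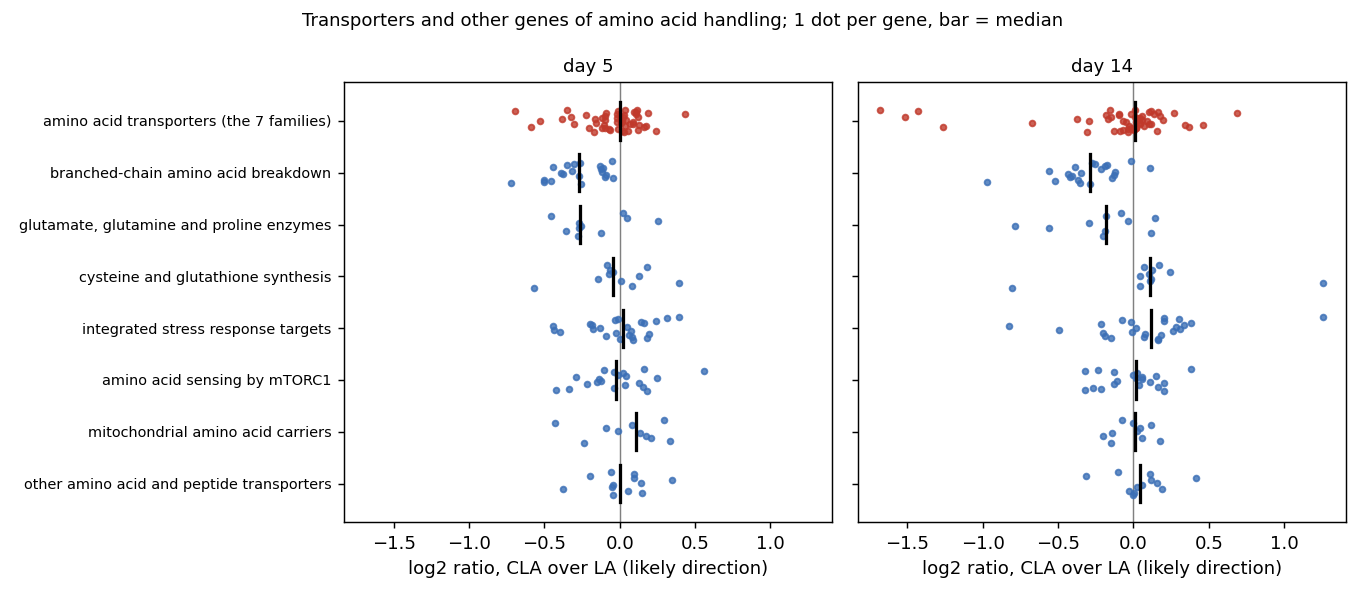
Log2 ratio of CLA over LA (horizontal axis, likely direction, fit of all 8 arrays) at day 5 (left) and day 14 (right), with 1 dot per gene and a bar at the median of each list. The branched-chain breakdown genes lie below 0 (21 of 21 and 20 of 21) with medians of −0.27 and −0.29, whereas the transporters centre on 0 with 4 genes between −1.68 and −1.26 at day 14.

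ATF4 and C/EBP proteins bind together to an element whose core is TGATGNAA, and Slc7a11 is a textbook target. That word was searched on both strands within 250 bases before to 50 after the start. It was found in 3 of the 37 transporters with a promoter in the RefSeq table (8.11%), Slc1a4, Slc7a7 and Slc7a11. The share was 4.51% over all 27025 genes of that table. The 250 bases before the start of Slc7a11 are shown with both matches in capitals, 1 on each strand. The first letters of the matches lie 66 and 47 bases before the start.
Slc7a11, chr3:50443614-50443863, minus strand: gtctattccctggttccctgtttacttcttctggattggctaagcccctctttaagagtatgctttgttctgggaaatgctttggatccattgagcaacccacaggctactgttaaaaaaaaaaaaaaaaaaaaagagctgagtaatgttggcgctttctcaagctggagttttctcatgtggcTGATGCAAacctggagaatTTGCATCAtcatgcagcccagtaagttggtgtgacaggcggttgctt
The 3 genes with the word stood at 0.37 ± 0.19 (Slc7a11), 0.12 ± 0.14 (Slc1a4) and 0.16 ± 0.10 (Slc7a7) at day 14 (SE, n = 4, fit of all arrays), none of them past the test.

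With the signs of arrays 3 and 4 turned, the alternative reading, limma called 14 of 53 transporters with the day 14 arrays alone. It called 5248 of all 16504 genes there, a larger share than of the transporters. Slc1a5 (0.43, limma adjusted p = 0.037) and Slc38a5 (0.69, adjusted p = 0.020) were then called higher, and Slc1a3 (0.23), Slc7a10 (0.29) and Slc36a2 (0.27) were not called. The falls of the 4 transporters and the rise of Slc36a2 thus rest on the arrays having been deposited in a common direction.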

How the data were processed

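Per the labels, each array compared a pool of CLA-fed with a pool of LA-fed mice in 2 dyes. The values the authors deposited are treated here as log10 ratios, a unit inferred from their size. The sources used here do not give background treatment, normalization, filters, log base or numerator, and no intensities were used. Column medians as deposited lay between −0.0176 and 0.0109, close to 0 on every array. Values were multiplied by 3.32 to give log2. Of the probes 18218 had 1 gene symbol, 16 several and 4159 none. A gene's value was the mean of its probes. All 53 member symbols matched RefSeq (GRCm38.p6) by Entrez number.

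The log2 ratios of 16504 genes entered limma 3.58.1 (R 4.3.3). The model held both day means and 1 shared dye term for all 8 arrays; the same was run on the 4 arrays of each day. The fits left 5 residual degrees of freedom with all arrays and 2 with the arrays of 1 day. A call is a Benjamini-Hochberg adjusted p under 0.05. Unless another fit is named, ± gives the SE from the fit of all arrays. That the model of all arrays calls no gene was known when the day 14 model was given its place in the text. An exact sign-flip test over 4 arrays cannot go below p = 0.125 and was not used. In simulated data, 200 of 16504 genes were changed by 2 log2 units at day 14. The fit of all arrays recovered 97% of them with 15 false calls, and that of the day 14 arrays alone 96% with 17. The simulated spread of a gene was the same on both days, unlike that of the real arrays. The planted size was larger than the mean of any called transporter. These shares thus do not give the power for the transporters. Members and lists were chosen with earlier results of these data known. By the rule used, array values are given for members with an unadjusted p under 0.05 or a call, for the 3 largest means in each direction at each day and for 9 further chosen members, and others by range. Same-numbered arrays of both days, with day means and each day's dye term taken off, correlated at −0.38 (arrays 1 and 2) and 0.02 (arrays 3 and 4). That fit leaves the 2 arrays of a day and orientation with opposite residuals, so these values cannot show whether the numbers pair the arrays. The numbers were not taken to pair them.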

Additional observations from a re-analysis of the deposited data

Results flagged for a closer look

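Among 34 groups of 4 array values of the 17 transporters given array by array, 2 held an array whose gap to the nearest other was too large a part of the range by Dixon's test. Chance alone gives this in about 5% of groups. Slc36a3 stood at 1.46 on day 5 array 3, against −0.03 to 0.18 on the other arrays of that day. Slc6a8 stood at −0.09 on day 14 array 4, against 0.60 to 0.74 on arrays 1 to 3.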

How the results depend on the processing

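With all arrays, genes called at day 14 (0) became 260 with each day's arrays alone, 584 with array weights, 291 without day 5 arrays 1 and 3, 1 with arrays scaled to one spread and 2089 with arrays 3 and 4 turned, when 2140 were called at day 5; the day difference (0) gave 1 without day 5 arrays 1 and 3. Transporters with an unadjusted p under 0.05 at day 5 (2) became 0 with day 5 arrays alone, without a dye term or with a dye term for each day, 1 with weights or median centring, 4 probe by probe and 12 turned. At day 14 (9) they became 14 with weights, and for the difference (2) 7 with weights, 1 without a dye term, 4 turned and 6 without day 5 arrays 1 and 3. The replicate block gave 0 called genes and 2 transporters for the difference. Apart from each day's arrays alone, the share of all genes under that unadjusted p was not counted in these settings. Nor was it counted with 1 array left out. Changes in these transporter counts are thus not results about the transporters. With day 14 arrays alone, the 5 called transporters and 260 genes became 0 and 1 without a dye term, 2 and 96 probe by probe, and 14 and 5248 turned. Leaving out 1 array at a time gave 0 to 4 transporters and 1 to 156 genes there (1 gene without array 1 or 2, 68 without array 3, 156 without array 4), 0 to 1 genes called at day 14 with all arrays, and 0 to 9, 5 to 11 and 1 to 7 transporters under an unadjusted p of 0.05 at day 5, day 14 and for the difference.

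Some signs reversed (log2 ratios follow), and the cause was not tested. Turning arrays 3 and 4 gave at day 5 Slc1a5 0.10, Slc36a1 0.40, Slc36a3 −0.36, Slc38a4 0.63, Slc3a2 0.65, Slc6a2 0.29, Slc6a7 −0.16 and Slc7a7 −0.12. At day 14 it gave Slc1a3 0.23, Slc1a5 0.43, Slc38a2 −0.066, Slc38a4 0.75, Slc38a5 0.69, Slc6a2 0.13, Slc6a7 −0.16, Slc7a10 0.29, Slc7a11 −0.17 and Slc7a7 −0.11. At day 5, weights gave Slc36a1 0.024, Slc38a5 −0.62, Slc3a2 0.00025, Slc6a2 0.017 and Slc7a5 −0.14, and scaling gave Slc36a1 0.055, Slc3a2 0.20 and Slc7a7 −0.029. Without day 5 arrays 1 and 3, day 5 values were Slc1a3 0.49, Slc1a5 0.16, Slc36a1 0.092, Slc38a5 −0.88, Slc6a13 0.022, Slc6a2 0.15, Slc7a10 0.58, Slc7a11 −0.15 and Slc7a5 −0.49. Leaving out 1 array moved day 5 values over −0.77 to 0.26 for Slc1a3, −0.20 to 0.059 for Slc36a1, −0.19 to 0.47 for Slc36a2, −0.53 to 0.69 for Slc38a5, −0.14 to 0.18 for Slc3a2, −0.29 to 0.022 for Slc6a2, −0.18 to 0.56 for Slc7a5 and −0.0073 to 0.048 for Slc7a7, and day 14 values over −0.063 to 0.032 for Slc36a3, −0.018 to 0.11 for Slc3a2 and −0.23 to 0.077 for Slc7a5. No sign of the 5 transporters called at day 14 reversed at that day in any other setting tried. With no intensities, signal over background is unknown.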

Other observations

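On day 5 array 1, where the epididymal transcripts Lcn5 and Rnase10 stood at 2.83 and 2.30, the highest transporter values were 2.52 for Slc38a5, 1.36 for Slc1a1, 1.17 for Slc7a5 and 1.04 for Slc7a1. On the same array Glul stood at 1.76, Got2 at 1.30 and Krt19 at 1.11. These genes were singled out after their values were seen. Of the 2 probes of Slc7a1, 1 gave 1.77 and the other 0.30 on that array.

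Probes of 1 gene disagreed for Slc7a15, with day 5 means of 0.25 and −0.28, and for Slc1a2, with 0.46 and −0.23. The gene means of both, −0.01 and 0.12, hide these differences.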
